A study of Mus musculus with 5 samples.

Results

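The genes described here encode the extracellular matrix, the integrins that bind it and the proteases that cut it, in mouse embryonic stem cells (ESCs) and in the epiblast stem cells (EpiSCs) made from them. They were chosen by symbol: all collagen, laminin, integrin, matrix metalloproteinase (Mmp) and tissue inhibitor of metalloproteinase (Timp) genes of the table, with Fn1, Sparc, Nid1, Nid2 and Hspg2. This gave 113 of 23951 genes, of which 35 had a mean of at least 1 FPKM (fragments per kilobase of transcript, scaled to library size) over the 5 libraries. The other 78 lay below that mean, 12 of them listed at 0 in all libraries.

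Pluripotent cells of the early embryo sit on a basement membrane, a sheet of laminin and collagen IV networks that nidogens and the proteoglycan perlecan hold together. Laminins are trimers of an alpha, a beta and a gamma chain, and cells bind them through integrins, which are pairs of an alpha and a beta chain. Mmp enzymes cut matrix and cell surface proteins, and Timp proteins inhibit them.

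RNA sequencing covered 5 groups of 1 library. The ESC libraries came from the E14 line, in LIF with 15% serum on gelatin, or in a basal medium with LIF and 10 ng/ml of BMP-4. The EpiSC libraries came from cells kept in N2B27 medium with FGF2 at 12 ng/ml and Activin A at 20 ng/ml on plates coated with serum, either untreated or exposed to 10 ng/ml of BMP-4, over 1.5 h or over 24 h. The EpiSCs were derived from ESCs and not from embryos, and their source is also given as E14. LIF is leukaemia inhibitory factor, and BMP-4 is bone morphogenetic protein 4. State, medium and coating differ together between ESCs and EpiSCs and cannot be told apart.

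With 1 library per group there was no spread between replicates and no test was made. Ranges in parentheses are the 95% intervals deposited with each FPKM, and a fold is a ratio of FPKM + 1, which understates the change of low genes. "Higher" and "lower" in a count mean at least 2-fold on that scale, among genes whose mean reached 1 FPKM. Depth, estimated from steps in low values, was about 8.56 M to 13.45 M reads. For members between 1 and 20 FPKM the upper bound lay 72.5% to 80.7% above the value in the median, and for those at 20 FPKM or more 48.0% to 50.0%. The naive marker Zfp42 stood at 1227 to 1336 FPKM in ESCs and 0.391 to 0.686 in EpiSCs, and the primed marker Fgf5 at 0.0495 to 0.236 and 60.2 to 133, which matches the labels.

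The summed FPKM of all 113 members was nearly the same in every library: 649 in either ESC library, and 610, 623 and 616 in untreated, 1.5 h and 24 h EpiSCs. Single genes differed much more. In untreated EpiSCs against ESCs in LIF and serum, 11 members were higher and 9 lower, with 11.6% and 9.55% of the 11011 genes compared being higher and lower. The deposited intervals were also apart for 4 of the higher members, Col2a1, Col5a1, Col7a1 and Mmp25 (2.68% of all genes), and for 5 of the lower (2.84%), among them Fn1, Itgb7, Lama1 and Nid1. With the BMP-4 library of ESCs as the other side, 8 members stood higher and 8 lower (11.0% and 10.0% of all genes). There the intervals were apart for Itga8, Lamb1 and Mmp25 among the higher (2.39% of all genes) and for Fn1, Itgb7, Lama1 and Nid1 among the lower (3.11%). Both comparisons share the untreated EpiSC library. The median log2 difference of the 35 members was -0.19 in the first and 0.04 in the second, against -0.01 and 0.00 over all genes.

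When all libraries were used, 7 members lay at least 2-fold higher in each of the 3 EpiSC libraries than in either ESC library: Mmp25, Col5a1, Itga8, Timp3, Lamb1, Col7a1 and Itgb5. Another 7 lay lower in the same way: Lama1, Nid1, Itgb7, Fn1, Itga9, Timp1 and Mmp11. Over all genes 7.21% were higher and 6.61% lower by this rule. The deposited intervals were apart in all 6 pairs of an EpiSC and an ESC library for Mmp25 (1.43% of all genes) among the higher members, and for Lama1, Nid1, Itgb7 and Fn1 (2.08%) among the lower. Of the 35 members, 8 pass the filter through 1 cell type alone: Col2a1, Col7a1, Itga8, Mmp25 and Timp3 had an ESC mean under 1 FPKM, and 3 members, Itgb7 and Lama1 among them, an EpiSC mean under 1. Such genes had to differ in mean, so the counts are a description and say nothing of matrix genes as a class. At any fold, 15 of the 35 members stood higher in every EpiSC library than in both ESC libraries and 15 lower, with 34.9% and 35.7% of all genes doing so. The libraries overlapped for Col18a1, Itga3, Mmp14, Mmp2 and Sparc.

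**Figure D1:**
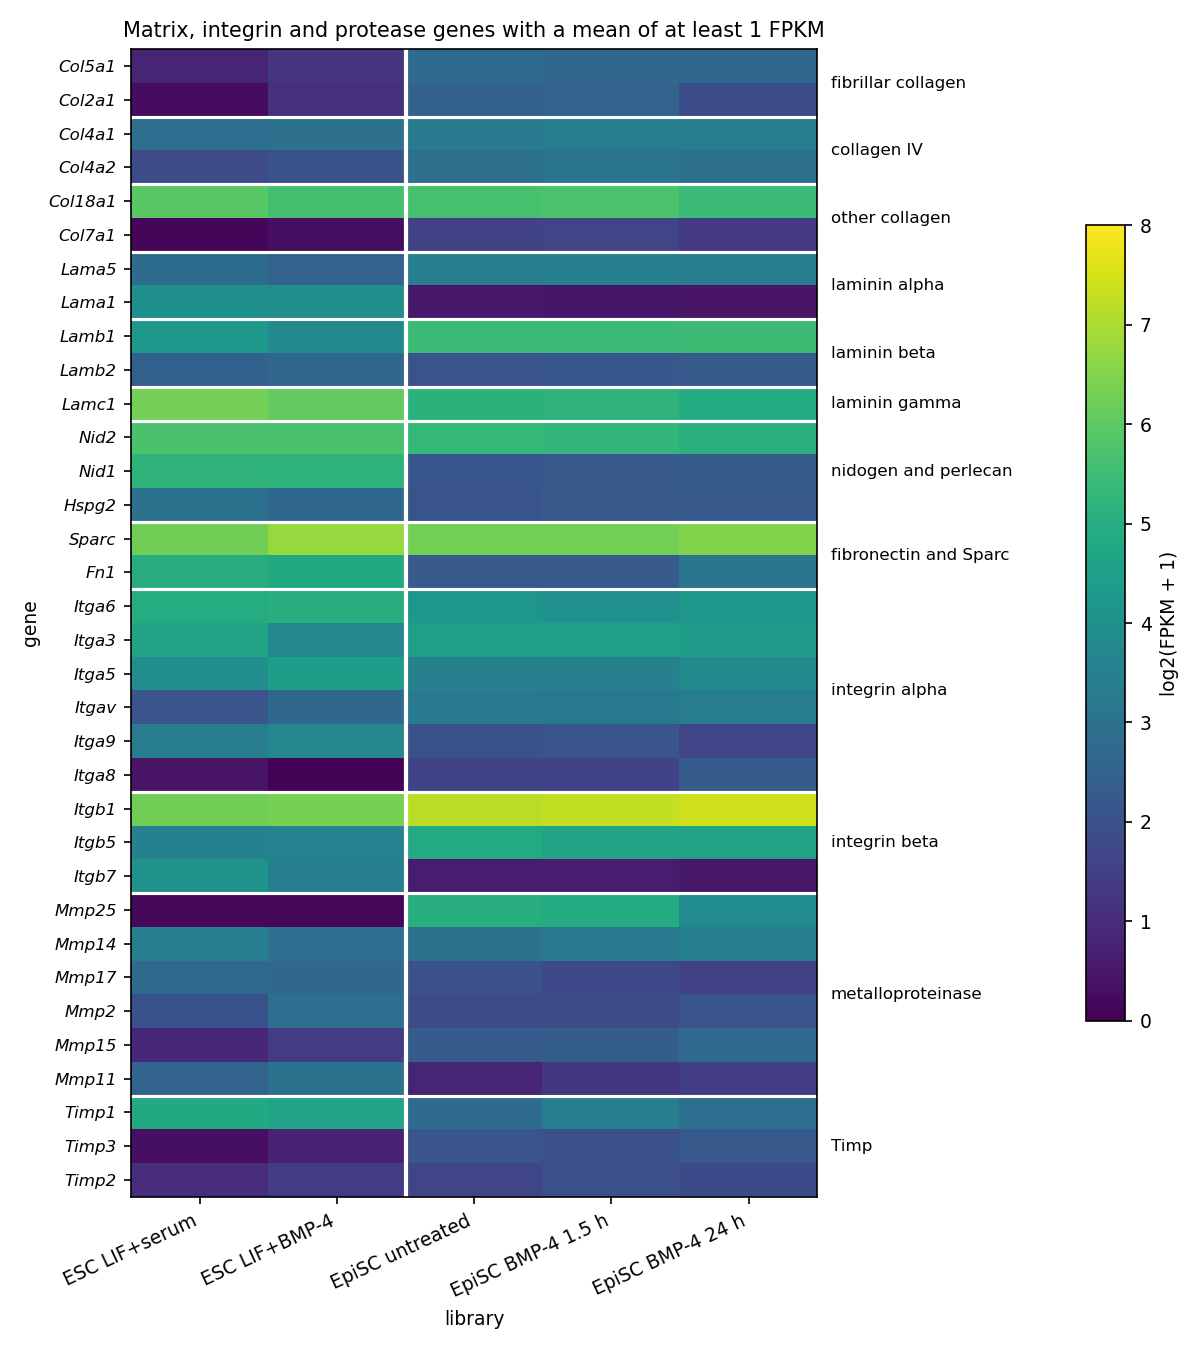
Level of the members described that had a mean of at least 1 FPKM, as log2(FPKM + 1) by colour, in rows grouped by role and in 5 columns for the libraries, with a white line between ESCs and EpiSCs. Lama1, Nid1, Fn1 and Itgb7 are darker on the EpiSC side and Mmp25 on the ESC side, while Sparc, Col18a1 and Nid2 keep a similar colour in all 5 libraries.

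The laminin alpha chain carries the main sites for cell binding, and its genes Lama1 and Lama5 stood in opposite order between the cell types. Lama1 encodes the alpha 1 chain of the first embryonic basement membranes (mm9 chromosome 17, 68046605 to 68171985). Its level was 15.3 FPKM (7.41 to 23.2) in ESCs with serum and 14.0 (6.60 to 21.5) with BMP-4. In untreated, 1.5 h and 24 h EpiSCs it stood at 0.454 (0 to 0.985), 0.388 (0 to 0.932) and 0.349 FPKM (0 to 0.830). Every EpiSC library lay far below both ESC libraries, and the closest 2 of them were 10.3-fold apart. Lama5, the alpha 5 chain of most later basement membranes, went the other way: 6.06 and 4.74 FPKM in ESCs with serum and with BMP-4, and 9.79, 10.3 and 9.38 in untreated, 1.5 h and 24 h EpiSCs. These levels were apart between cell types, but under 2-fold and with overlapping intervals.

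As a share of all alpha chain FPKM, Lama1 made up 69.7% and 70.2% in the ESC libraries and 3.34% to 4.14% in the EpiSC libraries. Lama5 made up 27.6% and 23.7% in ESCs and 89.4% to 90.2% in EpiSCs. FPKM is per length, so these shares compare transcript levels, not protein. The remaining chains, Lama2, Lama3 and Lama4, did not pass the filter and reached at most 0.806 FPKM. The summed alpha chain level was 21.9 and 20.0 FPKM in ESCs and 10.5 to 11.4 in EpiSCs.

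The common beta and gamma chains stood in opposite order between the cell types. Lamb1, the common beta chain, stood at 18.1 FPKM (8.14 to 28.1) in ESCs with serum, 13.3 (5.45 to 21.2) with BMP-4, and 43.2 (22.9 to 63.5), 43.1 and 43.5 FPKM in untreated, 1.5 h and 24 h EpiSCs. The EpiSC libraries were nearly equal and the closest EpiSC and ESC libraries 2.30-fold apart, with intervals that overlapped for serum and not for BMP-4. Lamc1, the common gamma chain, stood at 79.5 (47.5 to 112) and 66.2 FPKM (38.7 to 93.6) in ESCs with serum and with BMP-4, and at 34.5 (18.4 to 50.5), 35.9 and 29.4 in the EpiSC libraries in the same order. It was lower in all 3 EpiSC libraries, 2.27-fold for untreated EpiSCs against serum and 1.89-fold against BMP-4. The intervals overlapped except between the 24 h (15.3 to 43.4) and the serum library. The ratio of Lamb1 to Lamc1 was thus 0.228 and 0.201 in ESCs and 1.20 to 1.48 in EpiSCs.

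Lamb2, the alternative beta chain, stood at 4.57 and 5.17 FPKM in ESCs and 3.16 to 3.95 in EpiSCs. Lamb3 and Lamc3 reached at most 0.271 and 0.0294 FPKM.

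**Figure D2:**
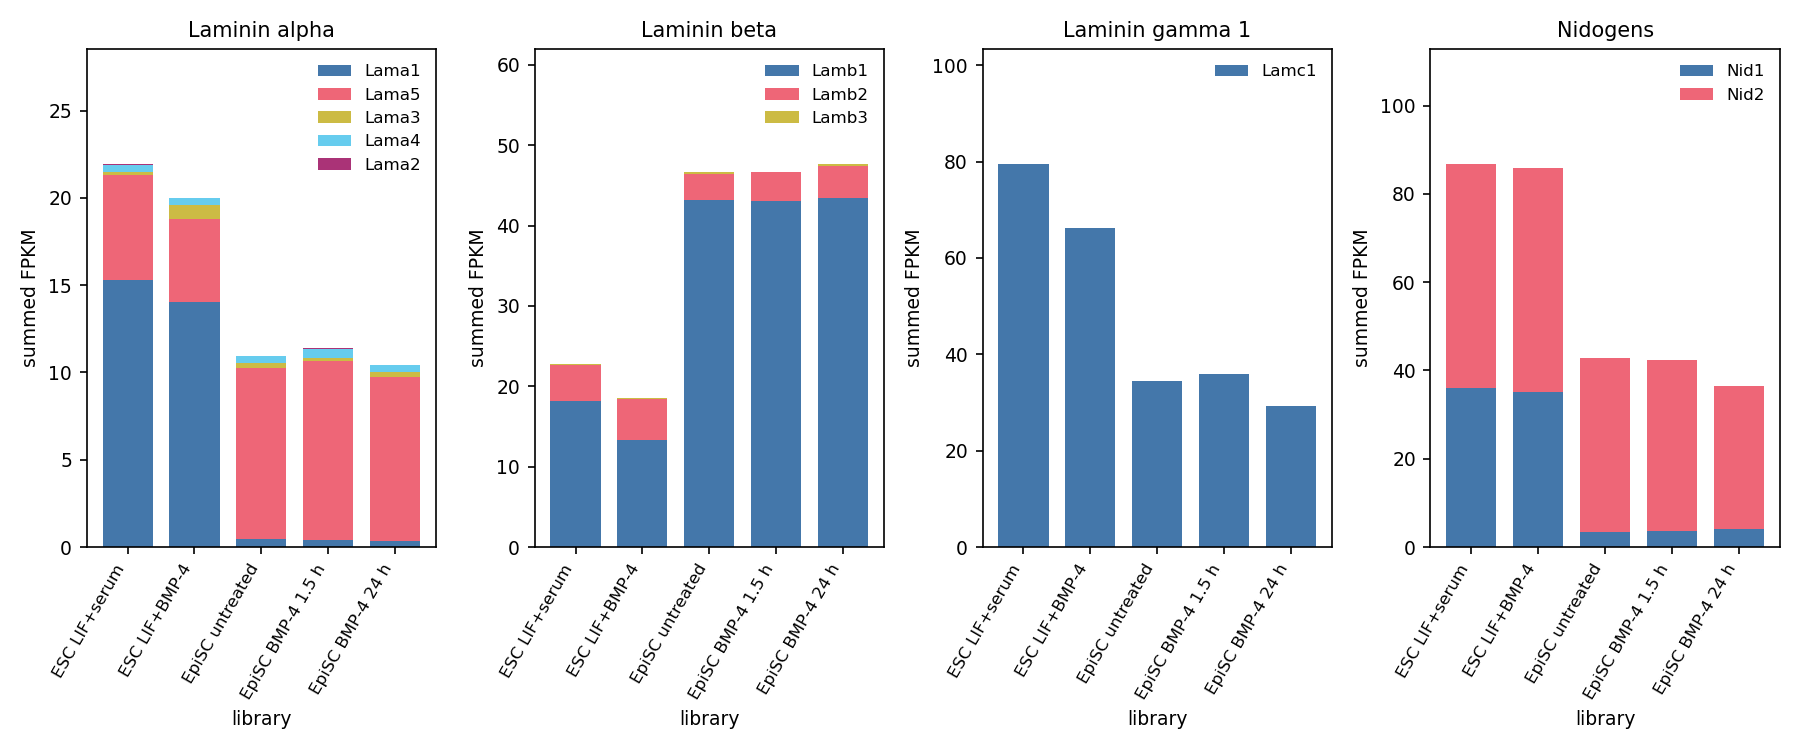
Summed FPKM of the laminin alpha and beta chains, of the gamma chain Lamc1 and of the nidogens (4 panels with separate vertical axes from 0), by library, with colours for the genes. Lama1 fills most of the alpha bar in ESCs (15.3 and 14.0 FPKM) and Lama5 in EpiSCs, the beta bar is taller in EpiSCs and the Lamc1 bar in ESCs.

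The nidogens, which tie laminin to collagen IV, parted from each other. Nid1 lies on mm9 chromosome 13 (13529869 to 13604542) and had levels of 35.9 (18.8 to 53.0) and 35.0 FPKM (18.2 to 51.9) in ESCs with serum and with BMP-4. In untreated, 1.5 h and 24 h EpiSCs it stood at 3.36 (0.665 to 6.06), 3.69 (0.675 to 6.70) and 4.02 (0.997 to 7.05). The closest libraries were 7.17-fold apart. Nid2 stood at 50.8 and 50.9 FPKM in ESCs and at 39.5, 38.6 and 32.5 in the EpiSC libraries, a difference under 2-fold with overlapping intervals. The ratio of Nid2 to Nid1 was 1.42 and 1.45 in ESCs and 8.07 to 11.7 in EpiSCs. The span given for Nid2 in the table also holds 2700060E02Rik, and the sources used here do not say whether reads were counted by strand. Hspg2, which encodes perlecan, stood at 7.01 and 5.47 FPKM in ESCs and 3.22 to 3.67 in EpiSCs.

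Fn1 encodes fibronectin, the main ligand of integrin alpha 5 beta 1 (mm9 chromosome 1, 71632047 to 71699808). It stood at 30.7 FPKM (16.0 to 45.4) in ESCs with serum, 28.1 (14.4 to 41.9) with BMP-4, 3.71 (1.07 to 6.35) in untreated EpiSCs, 3.72 (1.03 to 6.40) after 1.5 h and 7.75 (3.06 to 12.4) after 24 h. All EpiSC libraries lay below both ESC libraries, and the 24 h library was the closest, 3.33-fold below the ESCs with BMP-4. Sparc, a collagen-binding matrix protein, was among the most abundant members: 76.2 and 108 FPKM in ESCs with serum and with BMP-4, and 78.4, 78.1 and 88.5 in the EpiSC libraries. These libraries overlapped between cell types.

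The collagens were mostly silent or low. Of 11 fibrillar collagen genes, those of the rope-like fibres of connective tissue, Col2a1 and Col5a1 passed the filter. Col5a1, a regulator of fibril diameter, stood at 0.768 (0 to 1.64) and 1.35 FPKM (0.128 to 2.57) in ESCs with serum and with BMP-4, and at 6.01 (2.19 to 9.82), 5.40 and 5.39 in the EpiSC libraries. Col2a1, the collagen of cartilage and notochord, stood at 0.207 (0 to 0.527) and 1.12 FPKM (0 to 2.41) in ESCs, and at 4.62 (0.858 to 8.38), 4.81 (1.19 to 8.43) and 2.69 (0.336 to 5.04) in untreated, 1.5 h and 24 h EpiSCs. Both genes were higher in untreated EpiSCs than in either ESC library, and Col2a1 after 24 h lay closest to the ESC values. The genes of collagen I, the main fibril of fibroblasts, stayed under the filter, with Col1a1 at 0.121 and 0.184 FPKM in ESCs and 0.637 to 0.800 in EpiSCs. Col3a1 was listed at 0 in both ESC libraries and stood at 0.473 to 0.825 FPKM in EpiSCs. Col5a3 showed the reverse order below the filter, at 0.812 and 2.30 FPKM in ESCs and at most 0.0160 in EpiSCs.

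Collagen IV forms the network of the basement membrane, usually from Col4a1 and Col4a2 chains. Col4a1 stood at 6.37 (2.13 to 10.6) and 6.76 FPKM in ESCs, and at 8.87 (3.37 to 14.4), 9.37 and 9.18 in the EpiSC libraries. Col4a2 stood at 2.65 (0.474 to 4.83) and 3.02 FPKM in ESCs, and at 6.69 (2.26 to 11.1), 7.5 and 6.72 in the EpiSC libraries. Both were higher in every EpiSC library, Col4a2 by 2.11-fold for untreated EpiSCs against serum, with overlapping intervals. The ratio of Col4a1 to Col4a2 was 2.40 and 2.23 in ESCs and 1.25 to 1.37 in EpiSCs. The other 4 collagen IV genes, Col4a3 to Col4a6, reached at most 0.430 FPKM.

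Col4a1 and Col4a2 lie head to head: in the deposited table (mm9, chromosome 8) Col4a1 ends at 11312826 and Col4a2 begins at 11312829. The stretch between their start sites is shown because both genes read out from it, in opposite directions. In the RefSeq table of promoters (build GRCm38.p6) the start sites are 11312826 and 11312805, so that the first 22 bases of both genes overlap. That stretch, with the CpG dinucleotides in capitals, lies at chr8:11312805-11312826 on the plus strand, the strand of Col4a2.
Col4a1 and Col4a2 starts: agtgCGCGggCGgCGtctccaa
It holds 4 CpG dinucleotides in 22 bases and a GC box (GGGCGG on either strand).

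Among the 27 other collagens, Col18a1 was the most abundant, with 60.6 and 48.9 FPKM in ESCs and 50.2, 52.8 and 42.5 in untreated, 1.5 h and 24 h EpiSCs. Its product is a basement membrane collagen whose end piece is endostatin, and its libraries overlapped between cell types. Col7a1, the collagen of the anchoring fibrils of skin, stood at 0.0724 (0 to 0.190) and 0.218 FPKM (0 to 0.520) in ESCs and at 2.00 (0.373 to 3.62), 2.16 (0.357 to 3.96) and 1.59 (0.242 to 2.94) in the EpiSC libraries. The rest did not pass the filter. Of these, Col9a2 (0.727 and 3.46 FPKM in ESCs, at most 0.0994 in EpiSCs) and Col13a1 (1.57 and 0.614 in ESCs, at most 0.282) stood higher in ESCs, and Col8a2 (0.105 and 0.351 in ESCs, 1.06 to 1.49 in EpiSCs) higher in EpiSCs.

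Of 18 integrin alpha genes 6 passed the filter. Itga6, Itga3 and Itga5, the alpha chains of laminin and fibronectin receptors, were the most abundant in ESCs with serum. Itga6 stood at 29.9 and 31.0 FPKM in ESCs with serum and with BMP-4 and at 17.2, 15.6 and 17.7 in the EpiSC libraries. Itga3 stood at 24.4 (11.1 to 37.7), 12.2 (4.66 to 19.7), 22.6, 22.2 and 19.6 FPKM in the same order of libraries, lowest in ESCs with BMP-4. Itga5 stood at 14.2 and 20.7 FPKM in ESCs and at 10.2, 10.2 and 12.8 in EpiSCs. None of these 3 was 2-fold apart in a comparison, and the intervals overlapped. For Itga6, 5.92% of its 36-base words in GENCODE M21 transcripts occur in transcripts of other genes, and for Itgb5 7.70%. No other member that passed exceeded 2.23%.

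The other 3 alpha chains that passed were those of receptors for further ligands. Itga9, which binds tenascin C and osteopontin, stood at 9.55 (3.80 to 15.3) and 12.0 FPKM (5.04 to 18.9) in ESCs with serum and with BMP-4, and at 3.04 (0.682 to 5.40), 3.32 and 2.19 in the EpiSC libraries. Itga8, the receptor chain for nephronectin, stood at 0.331 (0 to 0.791) and 0.0556 FPKM (0 to 0.178) in ESCs and at 2.14 (0.240 to 4.04), 2.11 and 4.03 (0.963 to 7.09) in untreated, 1.5 h and 24 h EpiSCs. The span of Itga8 overlaps that of E030013I19Rik. Itgav, the alpha chain of vitronectin receptors, stood at 3.36 and 5.36 FPKM in ESCs and at 8.81, 8.43 and 9.54 in EpiSCs, 2.25-fold higher in untreated EpiSCs than with serum. The 3 genes were apart between cell types in all libraries, Itga9 towards ESCs and the others towards EpiSCs. Below the filter, Itga1, a collagen receptor chain, stood at 0.0940 and 0.125 FPKM in ESCs and at 1.34 to 1.39 in EpiSCs, and its span in the table also holds Pelo.

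Itgb1, the beta chain shared by most of these receptors, was the most abundant member in EpiSCs, while Lamc1 with serum and Sparc in both conditions stood above it in ESCs. It stood at 75.3 (41.5 to 109) and 80.4 FPKM (44.6 to 116) in ESCs, and at 145 (86.0 to 203), 154 (92.2 to 215) and 170.3 (103 to 238) in untreated, 1.5 h and 24 h EpiSCs. All EpiSC libraries lay above both ESC libraries, the closest 1.79-fold apart. The summed level of its 12 possible alpha partners was 82.2 and 81.9 FPKM in ESCs and 63.8 to 67.5 in EpiSCs, so that the ratio of partners to Itgb1 was 1.09 and 1.02 in ESCs and 0.396 to 0.454 in EpiSCs. Itgb5, which pairs with Itgav, stood at 10.5 (3.08 to 17.9) and 10.7 FPKM in ESCs and at 28.7 (12.3 to 45.1), 24.5 and 23.6 in the EpiSC libraries. The ratio of Itgb5 to Itgav was 3.12 and 2.00 in ESCs and 2.47 to 3.26 in EpiSCs.

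Itgb7 is known from the homing receptors of lymphocytes (mm9 chromosome 15, 102046426 to 102062366). Its level was 15.8 FPKM (5.20 to 26.3) in ESCs with serum and 10.1 (2.58 to 17.5) with BMP-4. In untreated, 1.5 h and 24 h EpiSCs it stood at 0.533 (0 to 1.32), 0.545 (0 to 1.34) and 0.420 (0 to 1.06). The closest libraries were 7.16-fold apart. Its known alpha partners were low in ESCs, with Itga4 at 0.0789 and 0.0966 FPKM and Itgae at 0.269 and 0.513. Their spans overlap those of Cerkl and Gsg2. In the same way Itgal, the alpha chain of a leukocyte receptor, stood at 1.28 and 1.88 FPKM in ESCs while its partner Itgb2 was listed at 0 with serum and stood at 0.117 with BMP-4. In EpiSCs Itgb2 stood at 0.389 to 0.573 FPKM and Itgal at 0.0187 or less. Itgb3, Itgb4 and Itgb8 did not pass the filter, and Itgb6 was listed at 0 in all libraries.

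**Figure D3:**
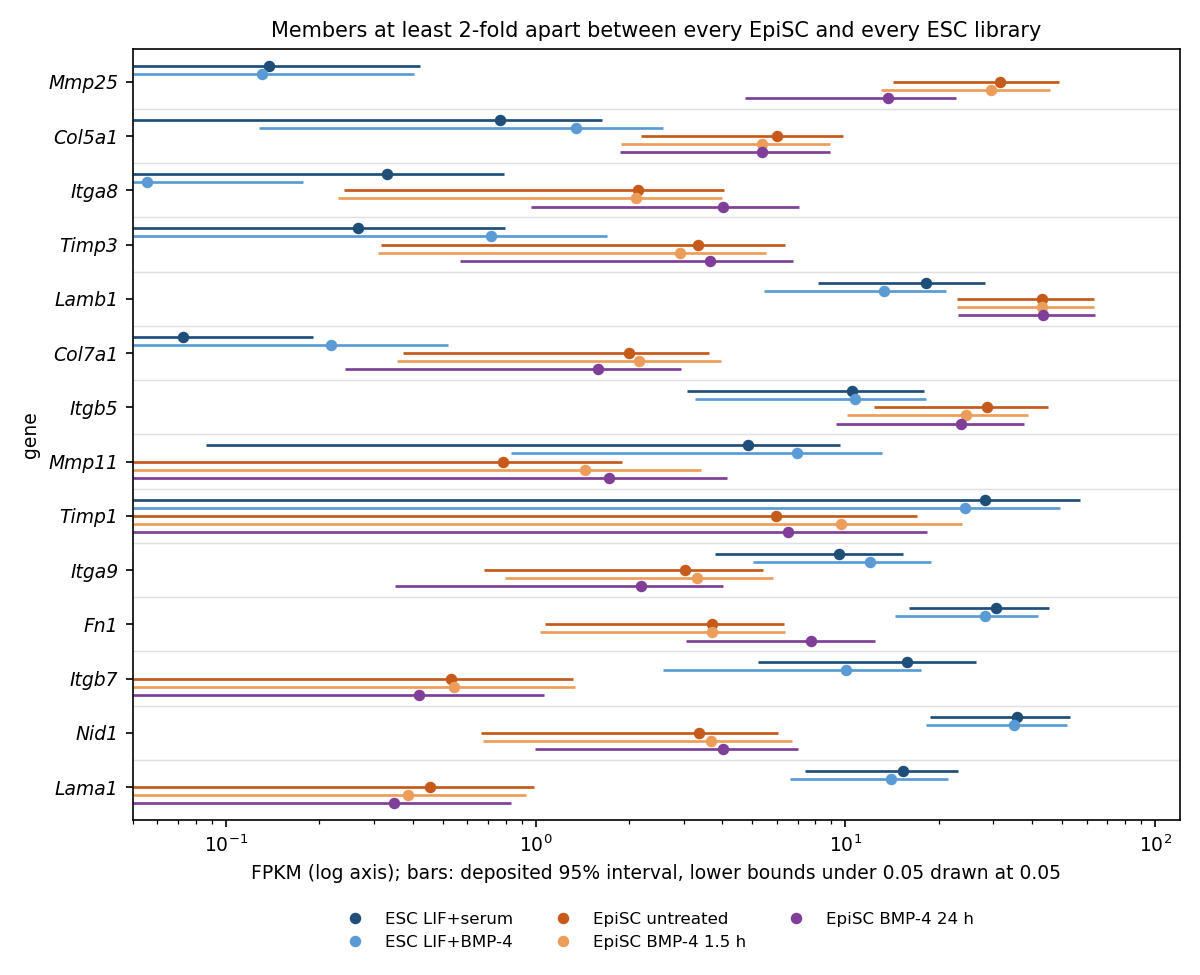
FPKM on a log axis of the 14 members at least 2-fold apart between every EpiSC and every ESC library, with a point per library and its deposited 95% interval as a bar (lower bounds under 0.05 are drawn at 0.05). Mmp25 at the top has the ESC points at 0.131 and 0.137 FPKM and Lama1 at the bottom the EpiSC points under 0.5 FPKM, while the bars of Timp1 reach 0 in all libraries.

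Of 23 Mmp genes 6 passed the filter and 7 were listed at 0 throughout. Mmp25, a protease anchored to the cell surface and known from leukocytes (mm9 chromosome 17, 23766425 to 23782236), showed the largest difference between the cell types among members. It stood at 0.137 (0 to 0.424) and 0.131 FPKM (0 to 0.405) in ESCs with serum and with BMP-4, and at 31.5 (14.2 to 48.8), 29.5 (13.1 to 45.9) and 13.8 (4.74 to 22.8) in untreated, 1.5 h and 24 h EpiSCs. Untreated EpiSCs were 28.6-fold higher than ESCs with serum, and the closest libraries, those of 24 h and of serum, 13-fold apart. Mmp25 alone made up 0.529% and 0.456% of all Mmp FPKM in ESCs and 63.2%, 59.9% and 36.1% in the EpiSC libraries.

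The other membrane-type enzymes differed less. Mmp14, an activator of Mmp2, stood at 9.77 and 6.62 FPKM in ESCs and at 6.96, 8.41 and 10.1 in the EpiSC libraries, which overlapped. Mmp15 stood at 0.853 (0 to 2.05) and 1.65 FPKM (0 to 3.56) in ESCs and at 3.97 (0.704 to 7.23), 4.15 and 5.62 in EpiSCs, while Mmp17 stood at 5.82 and 5.29 in ESCs and at 2.92, 2.38 and 1.90 in EpiSCs. Summed over the 6 membrane-type genes the level was 16.7 and 13.8 FPKM in ESCs and 45.3, 44.4 and 31.4 in EpiSCs. Over the other 17 Mmp genes it was 9.19 and 14.8 in ESCs and 4.51, 4.79 and 6.74 in EpiSCs.

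Of the secreted enzymes, Mmp11 (stromelysin 3) stood at 4.84 (0.0864 to 9.60) and 7.0 FPKM (0.834 to 13.2) in ESCs and at 0.783 (0 to 1.90), 1.44 and 1.73 in untreated, 1.5 h and 24 h EpiSCs. Mmp2, a gelatinase, stood at 3.03, 6.57, 2.52, 2.55 and 3.20 FPKM in the order serum, BMP-4, untreated, 1.5 h and 24 h, with the ESCs with BMP-4 highest. Mmp9, the other gelatinase, stayed between 0.317 and 0.909 FPKM.

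Among the inhibitors, Timp1 stood at 28.2 (0 to 57.0) and 24.4 FPKM (0 to 49.4) in ESCs and at 5.94 (0 to 17.0), 9.65 (0 to 23.8) and 6.51 (0 to 18.4) in untreated, 1.5 h and 24 h EpiSCs. The values were apart between cell types, but all intervals overlapped and reached 0, and its span in the table also holds Araf and Syn1. Timp3, which binds the matrix, stood at 0.267 (0 to 0.794) and 0.716 FPKM (0 to 1.70) in ESCs and at 3.34 (0.316 to 6.36), 2.93 and 3.66 in the EpiSC libraries, and its span also holds Syn3. Timp2 stood at 1.02 and 1.63 FPKM in ESCs and 2.17 to 2.83 in EpiSCs, and its span overlaps that of BC100451. Timp4, under the filter, stood at 0 and 0.171 FPKM in ESCs and at 1.09, 1.39 and 0.458 in EpiSCs, and its span also holds Syn2. The sum of the 4 inhibitors was 29.4 and 26.9 FPKM in ESCs and 12.5, 16.8 and 13.1 in EpiSCs, with Timp1 making up 95.6% and 90.6% of it in ESCs and 47.4% to 57.4% in EpiSCs.

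Promoters were looked at as a feature that the choice of genes did not use. The RefSeq table (GRCm38.p6) held a window of 250 bases before to 50 after the start for 26 of the 35 members. The 7 members higher in all EpiSC libraries had 12 to 34 CpG dinucleotides per window (median 20), and the 5 lower members with a window had 5 to 20 (median 10). Over all 32851 windows of 300 bases the median was 7, with quartiles of 3 and 20. A GC box (GGGCGG on either strand) was in 6 of the 7 and 3 of the 5 windows, in 22 of the 28 windows of all members that passed, and in 35.7% of all windows in the table. The table also holds windows of genes under the filter, and values over the genes that passed were not computed. The distance of the members from all windows can therefore not be read as a trait of matrix genes. The lower members include Itgb7, with 5 CpG dinucleotides, and Nid1, with 20, so the counts of the groups overlap.

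The 250 bases before the start are shown for the members with a window that stood widest apart in either direction, Mmp25 towards EpiSCs (chr17:23645270-23645519, minus strand) and Nid1 towards ESCs (chr13:13437352-13437601, plus strand), 5′ to 3′ along the gene in build GRCm38.p6 with CpG dinucleotides in capitals.
Mmp25: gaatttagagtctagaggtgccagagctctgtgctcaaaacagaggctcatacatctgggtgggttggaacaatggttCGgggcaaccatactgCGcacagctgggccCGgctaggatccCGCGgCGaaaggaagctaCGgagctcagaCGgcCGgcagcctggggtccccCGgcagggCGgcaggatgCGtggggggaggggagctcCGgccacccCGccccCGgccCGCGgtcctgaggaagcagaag
Nid1: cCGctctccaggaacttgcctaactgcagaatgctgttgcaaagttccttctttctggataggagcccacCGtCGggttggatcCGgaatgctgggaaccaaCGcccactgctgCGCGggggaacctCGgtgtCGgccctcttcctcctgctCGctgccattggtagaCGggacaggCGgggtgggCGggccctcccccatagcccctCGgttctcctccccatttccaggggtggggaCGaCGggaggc
These stretches hold 17 and 16 CpG dinucleotides, and each holds a GC box. Itgb7 lay almost as far apart as Nid1, with 7.16-fold and 7.17-fold between the closest libraries. In the longer windows counted above, Itgb7 had 5 CpG dinucleotides, Nid1 20 and Mmp25 18. The like counts of Mmp25 and Nid1 thus depend on which lower member is shown. Whether the number of CpG dinucleotides goes with the direction was not tested.

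Treatment of EpiSCs with BMP-4 left most of these genes near their untreated level. After 1.5 h no member was 2-fold higher or lower (0.236% and 0.182% of all genes were), and the largest differences were 1.53-fold for Timp1 (5.94 and 9.65 FPKM) and 1.37-fold for Mmp11 (0.783 and 1.44 FPKM), both higher with overlapping intervals. After 24 h no member was higher (0.654% of all genes) and 1, Mmp25, was lower (0.527% of all genes), with 31.5 and 13.8 FPKM, 2.20-fold, and overlapping intervals. The intervals were apart for no member at either time, and for 0.0272% (higher) and 0.0% (lower) of all genes at 1.5 h and 0.0545% (higher) and 0.0272% (lower) at 24 h. Against 1.5 h, Mmp25 was again the one member that was lower (2.07-fold, 0.427% of all genes), and no member was higher (0.608%), with no member's intervals apart (0.0363% of all genes higher and 0.0182% lower). The 24 h library enters both of these comparisons.

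Under 2-fold at 24 h, Fn1 was 1.86-fold higher than in untreated EpiSCs (3.71 and 7.75 FPKM), Itga8 1.60-fold higher (2.14 and 4.03) and Col2a1 1.52-fold lower (4.62 and 2.69), all with overlapping intervals. With a pseudocount of 0.1 in place of 1, Fn1 and Mmp11 passed 2-fold (log2 differences of 1.04 and 1.05). The 1.5 h library stood with the untreated one for Fn1, Itga8 and Col2a1. For Mmp11 it did not, with 0.783, 1.44 and 1.73 FPKM in untreated, 1.5 h and 24 h EpiSCs and overlapping intervals. The mesoderm and streak markers summed to 40.4 FPKM in untreated EpiSCs, 34.6 after 1.5 h and 148 after 24 h. At 24 h 4 of the 6 (T, Mesp1, Evx1 and Cdx2) were higher (0.654% of all genes). Mesp1, Evx1 and Cdx2 reached the filter through the 24 h library alone, so their calls follow in part from the filter. In the same libraries 3 of the 6 primed markers (Fgf5, Otx2 and Cer1) were lower at 24 h (0.527% of all genes), and that list summed to 687, 629 and 455 FPKM. Dnmt3b, the largest part of that sum, stood at 403, 394 and 288 FPKM, under 2-fold. Pou3f1 also fell under 2-fold, while Fgf8 went the other way, at 61.2, 61.4 and 82.0 FPKM. The part of either list in these differences, that of Mmp25 included, was not tested. In bulk RNA, fewer cells of a type and less RNA per cell cannot be told apart.

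**Figure D4:**
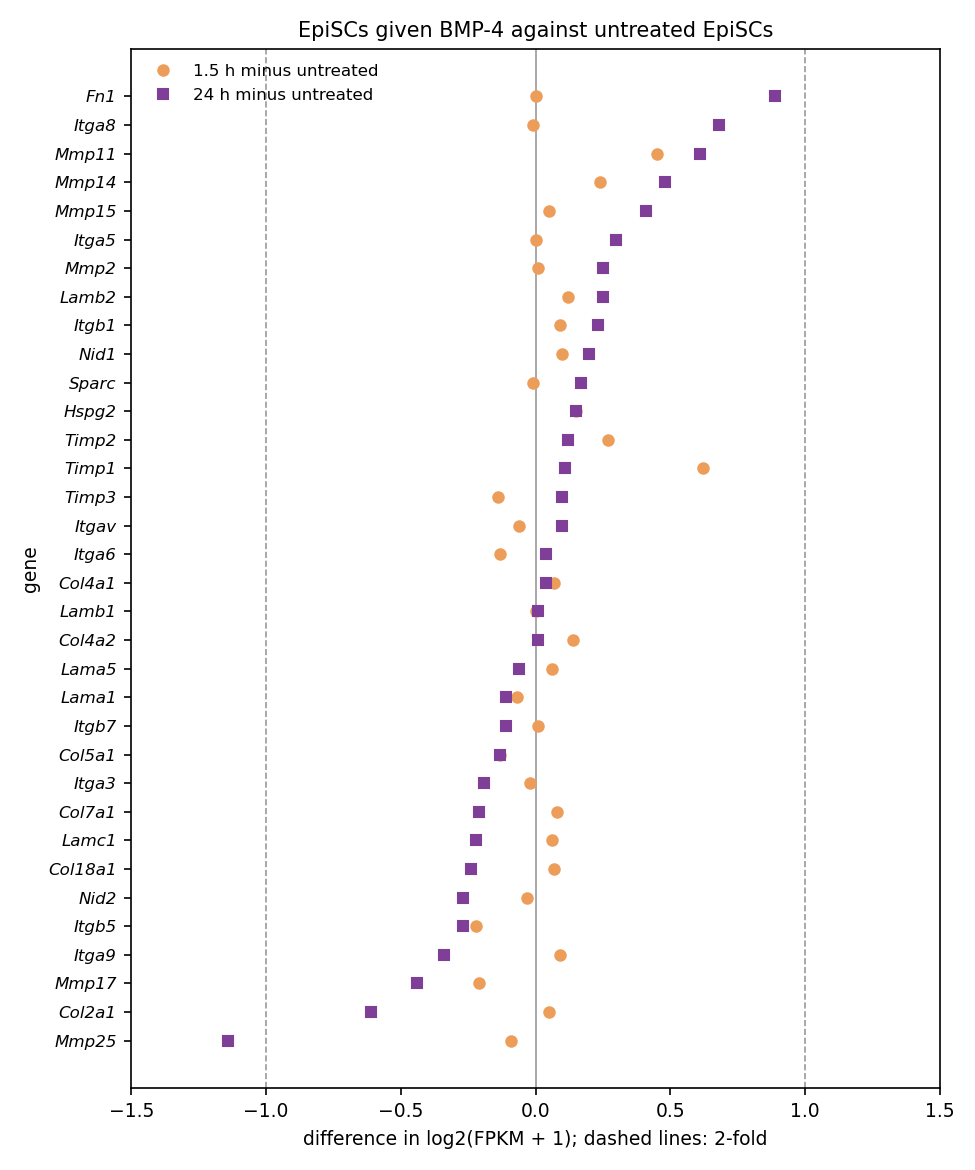
Difference in log2(FPKM + 1) from untreated EpiSCs for the members described that had a mean of at least 1 FPKM, after 1.5 h (circles) and 24 h (squares) of BMP-4, ordered by the 24 h value, with dashed lines at 2-fold. Mmp25 at 24 h (-1.14) lies beyond the lines, Fn1 (0.89) lies nearest to them on the other side, and both times share the untreated library.

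Between the ESC libraries no member was 2-fold higher with BMP-4 than with serum (2.61% of all genes were), and 1 was lower (1.28% of all genes). The intervals were apart for no member, and for 0.163% (higher) and 0.0363% (lower) of all genes. Itga3 was 1.93-fold lower with BMP-4, and Mmp2 (3.03 and 6.57 FPKM) and Col2a1 (0.207 and 1.12 FPKM) were 1.88-fold and 1.75-fold higher, all with overlapping intervals. With a pseudocount of 0.1, Mmp2, Col2a1 and Timp3 passed 2-fold higher and Itga8 lower. Serum and BMP-4 were exchanged together, and basal medium, coating and LIF dose may have differed too. The parts of these cannot be told apart.

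Genes that act with these members were taken from fixed lists and counted by the rule of every EpiSC against every ESC library, by which 7.21% of all genes were higher and 6.61% lower. Some listed genes passed the filter through 1 cell type alone and so had to differ in mean. Bmp1, Parva, Thbs1, Efemp1, Plau, Plat and Reck had an ESC mean under 1 FPKM, and Parvb and Tns1 an EpiSC mean under 1. Of these, Reck and Tns1 were not called by this rule. The counts are thus a description of these lists. Of 15 genes for collagen processing 10 passed the filter, 2 were higher (Plod2 and Bmp1) and 1 lower (Pcolce). Pcolce, an enhancer of the protease that trims collagen, stood at 61.3 and 45.8 FPKM in ESCs and 1.35 to 1.84 in EpiSCs, while Bmp1, that protease, stood at 0.672 and 0.466 in ESCs and 5.82 to 6.92 in EpiSCs. Plod2, a lysyl hydroxylase of collagen, stood at 11.6 and 13.7 FPKM in ESCs and 39.4 to 51.2 in EpiSCs.

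Of 18 adaptors and kinases of integrin adhesions 15 passed, 4 were higher (Vcl, Ilk, Parva and Zyx) and 3 lower (Tln2, Parvb and Tns3). Zyx, which encodes the adhesion protein zyxin, stood at 2.40 and 1.56 FPKM in ESCs and 55.5 to 64.0 in EpiSCs, and Vcl (vinculin) at 15.8 and 23.9 and 66.1 to 72.0. The parvins, partners of the kinase Ilk, stood in opposite order, with Parva higher and Parvb lower, the latter at 38.3 and 27.8 FPKM in ESCs and 0.134 to 0.168 in EpiSCs. Tns3, a tensin, stood at 42.1 and 45.1 FPKM in ESCs and 2.55 to 2.78 in EpiSCs.

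Of 21 other matrix glycoproteins and receptors 11 passed, 3 were higher (Thbs1, Efemp1 and Ddr1) and 2 lower (Spp1 and Bcam). Spp1, which encodes osteopontin, an integrin ligand, stood at 1651 and 1800.0 FPKM in ESCs and 19.9 to 31.0 in EpiSCs. Ddr1, a collagen receptor kinase, stood at 3.55 and 3.44 FPKM in ESCs and 24.3 to 28.2 in EpiSCs, and Thbs1 (thrombospondin) at 0.155 and 0.0369 and 8.17 to 8.79. Efemp1 was listed at 0 in both ESC libraries and stood at 3.50 to 7.07 FPKM in EpiSCs. Of 13 genes of the plasminogen system and other proteases 11 passed, 3 were higher (Plau, Plat and Serpine2) and 0 lower. Serpine2, an inhibitor of such proteases, stood at 3.29 and 2.80 FPKM in ESCs and 24.9 to 29.8 in EpiSCs, and the plasminogen activator Plat at 0.140 and 0.222 and 5.03 to 5.70. After 24 h of BMP-4 none of these 4 lists held a gene higher than in untreated EpiSCs (0.654% of all genes) and 1 gene was lower (0.527% of all genes), the protease gene Adamts9 (7.85 and 2.44 FPKM).

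Markers of other cell types that make matrix were mostly low, with some differences between the libraries. The 12 endoderm markers, since parietal endoderm secretes laminin and collagen IV, summed to 2.92 and 4.27 FPKM in ESCs and 9.10 to 9.65 in EpiSCs, none above 3.72 FPKM in a library. Of the 12, 3 passed the filter: Gata4, Gata6 and Sox17. Each of these stood under 1 FPKM in both ESC libraries, so none could be called lower. By the rule of every library 1 of them, Sox17, was higher (7.21% of all genes) and none lower (6.61%). That count follows in part from the filter, which Hnf4a and Sox7 did not pass. The markers did not stand in 1 order: Gata4, Gata6 and Sox17 made up most of the sum in EpiSCs, while Hnf4a stood at 0.758 and 2.42 FPKM in ESCs and at most 0.0832 in EpiSCs, and Sox7 at 0.532 and 0.473 in ESCs and at most 0.0275 in EpiSCs. Of 8 markers of fibroblasts and mesenchyme, Dcn and Fap were listed at 0 in all libraries, and the sum was 3.02 to 5.63 FPKM over the libraries, mostly from Thy1 (2.56 to 4.68). The 5 endothelial markers summed to 0.877 to 3.95 FPKM, and the 6 trophoblast markers to 8.07 to 18.5. The part of such cells in the results was not tested.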

How the data were processed

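The authors deposited 1 table of FPKM values per gene with a lower and an upper bound and a status per library, per the file headers. The submitters' processing notes name TopHat, Cufflinks 2.0.13, Picard and SAMtools and the mm9 build, with no role. The sources used here do not give the annotation, filters or scaling between libraries. The bounds were read as 95% limits, the definition of Cufflinks.

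Each group held 1 library, so no test was made. Differences of log2(FPKM + 1) were taken in 6 comparisons over the 11011 genes whose mean reached 1 FPKM, with calls at 2-fold. 1 member enters the counts and is not reported here by name or value. No member had a status other than OK. An exact 0 can be a failed estimate and is called listed at 0, without a fold. Named members are those at least 2-fold apart in a comparison or reaching 20 FPKM, and others serve as examples within their role. The members, lists and motifs were chosen with earlier results of these data known. Depth came from the most frequent ratio of values below 0.5 FPKM and from GENCODE M21 transcript lengths, and is approximate. Starts are written from 1. Python 3.11.15, pandas 2.3.3 and numpy 2.4.6 were used. Alternatives were another pseudocount, other filters, median-ratio scaling and leaving out each library.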

Additional observations from a re-analysis of the deposited data

How the results depend on the processing

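No paired analysis was possible because there was only 1 library in every group. Fixed alternatives were a pseudocount of 0.1, no filter, a mean of at least 5 FPKM and median-ratio scaling, and, for every EpiSC against every ESC library, leaving out each library. Of 66 recomputed counts of members 56 stayed within 1.5 times. With a mean of at least 5 FPKM, higher members in untreated EpiSCs numbered 5 against serum, 3 against BMP-4 and 3 in every EpiSC against every ESC library, and lower members in ESCs with BMP-4 against serum numbered 0. Fewer genes enter under that filter. A pseudocount of 0.1 gave 3 higher and 2 lower members in ESCs with BMP-4 against serum, 2 higher members (Fn1 and Mmp11) at 24 h against untreated and 1 (Fn1) against 1.5 h. Without a filter 1 member, Col9a2, was higher in ESCs with BMP-4 than with serum. Leaving out a library gave 7 to 11 higher members and 7 to 9 lower in every EpiSC against every ESC library, with 11 higher without the ESCs in LIF and BMP-4, adding Col2a1, Col4a2, Itgav and Mmp15. No called difference of a named member changed sign under the alternatives run. Under median-ratio scaling Itgb1 passed 2-fold in untreated EpiSCs against serum (log2 difference 1.01). Precision is limited by the wide deposited intervals, above all under 20 FPKM, and by the lack of replicates.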
